A study of Mus musculus with 2 samples.

Results

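Selenoproteins contain selenocysteine, an amino acid that carries selenium and is inserted at UGA codons, which otherwise end translation. *Selenop* codes for a secreted protein with many selenocysteines that carries selenium between and within organs, and the brain takes it up through receptors of the LDL receptor family. The other selenoproteins are mostly intracellular enzymes that use a single selenocysteine to reduce peroxides, disulfides or methionine sulfoxide. The 9 genes described here were *Selenop*, *Selenow*, *Selenom*, *Selenok*, *Selenof*, *Gpx1*, *Gpx3*, *Gpx4* and *Txnrd1*, out of 24 mouse selenoprotein genes among the 55450 genes listed, with *Selenop* set against the others. They were chosen by symbol because *Selenop* had one of the highest WMI to Control ratios in immature oligodendrocyte (OL) lineage cells in earlier results of the same counts. The choice thus used the values of *Selenop* in that lineage, and its ratios are given as a description with no test.

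The data were scRNA-seq counts of unique molecular identifiers (UMIs, which count each captured RNA molecule once) from the cerebral cortex of C57BL/6 mice, 1 Control library and 1 library of cerebral white matter injury (WMI). According to the labels, the right common carotid artery was ligated on postnatal day 7 under 1 h of hypoxia, and the ligated cortex and the ipsilateral cortex of the control group were taken on day 14, at 2 weeks of age, as nuclei. The study's methods instead give earlier days, a longer exposure and dissociated cells, and describe several replicates per group. No deletion or transgene is given for either group, the control group carries the same protocol text with the treatment given only as Control, and the labels do not say how many mice each library pooled. With 1 library per condition no difference has a replicate check, no test was run, and the 95% intervals below cover counting error only.

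The Control library held 66470806 UMIs in 10288 barcodes and the WMI library 60568639 in 8354, of which 8755 and 7571 cells were kept at medians of 4558 and 5096 UMIs. The libraries differed in more than the treatment. A UMI of *Xist*, a transcript of female cells, was present in 5 Control and 4818 WMI cells, the median mitochondrial share was 0.0595% and 0.451%, and 36 cell barcodes occurred in both libraries. Of 34 clusters, 32 were named "-like" from marker lists, without use of any selenoprotein gene in the clustering. The 4 classes compared were myeloid-like (421 Control and 1184 WMI cells), astrocyte-like (471 and 594), OL-lineage (560 and 984) and neuron-like cells (7100 and 3486). The shallow neuron-like cluster 0 held 2338 Control but 199 WMI cells, and cluster 2 held 1130 and 29. Of the myeloid-like cells, cluster 3 carried all 10 homeostatic microglia markers (398 and 693 cells), whereas cluster 12, led by *Apobec1*, *F13a1*, *Plin2* and *Gpnmb*, was nearly all WMI (14 and 462 cells). Cluster 12 carried 5 of the homeostatic markers, with 11 markers of lipid-laden activated myeloid cells and 6 of border macrophages. In cluster 3 the last 2 counts were 5 and 1.

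The coding sequences show what sets *Selenop* apart. In the GENCODE M21 annotation of GRCm38, which holds every gene identifier of the files, *Selenop* (ENSMUSG00000064373, chr15:3268547-3280508, plus strand) has 10 in-frame TGA codons among the 380 codons before its stop, each annotated as selenocysteine, and the other members have 1. The end of its coding sequence, codons 311 to 377 in exon 5 (chr15:3279498-3279698, plus strand), holds 7 of the 10, which are in capitals here.

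Selenop: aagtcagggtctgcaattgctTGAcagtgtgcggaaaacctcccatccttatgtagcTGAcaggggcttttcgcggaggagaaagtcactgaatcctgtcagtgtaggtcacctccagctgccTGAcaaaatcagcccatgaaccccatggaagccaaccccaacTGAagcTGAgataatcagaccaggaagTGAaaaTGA

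For contrast, the single TGA of 5 other members is shown in capitals within up to 15 coding bases on each side. *Selenow* codes for a small protein of the cytoplasm (ENSMUSG00000041571, chr7:15917208-15922402, minus strand, codon 13 of 88, a window that crosses from exon to exon). *Gpx1* codes for the cytosolic glutathione peroxidase, which reduces hydrogen peroxide (ENSMUSG00000063856, chr9:108338903-108340343, codon 47 of 201, in exon 1). *Gpx3* codes for the secreted glutathione peroxidase of plasma (ENSMUSG00000018339, chr11:54902453-54910377, codon 73 of 226, in exon 2). *Gpx4* codes for the peroxidase of membrane lipids that guards against ferroptosis (ENSMUSG00000075706, chr10:80047166-80056439, codon 73 of 197, in exon 3). *Txnrd1* codes for thioredoxin reductase, which keeps thioredoxin reduced (ENSMUSG00000020250, chr10:82833951-82897712, codon 498 of 499, in exon 15). In *Txnrd1* the codon lies just before the stop codon, unlike in the peroxidases, where it lies in the first part of the sequence.

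Selenow: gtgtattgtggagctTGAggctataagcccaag
Gpx1: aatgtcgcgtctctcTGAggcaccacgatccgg
Gpx3: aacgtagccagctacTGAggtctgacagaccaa
Gpx4: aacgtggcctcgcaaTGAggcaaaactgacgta
Txnrd1: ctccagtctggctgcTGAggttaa

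The remaining members code for proteins of the endoplasmic reticulum. *Selenom* (ENSMUSG00000075702, chr11:3514684-3517351) and *Selenof* (ENSMUSG00000037072, chr3:144570304-144597680) code for thioredoxin-like proteins of its lumen, and *Selenok* (ENSMUSG00000042682, chr14:29968308-29975662) for a membrane protein.

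First, the level of *Selenop* was compared among cell classes. A level is the UMIs of a gene per 1000000 UMIs (CPM) of a class, and since transcript length affects how genes compare, each gene is set only against itself. In the Control library *Selenop* stood at 93.5 CPM in myeloid-like (135 UMIs, 78.4 to 111), 42.4 in astrocyte-like (106 UMIs, 34.7 to 51.3), 6.05 in OL-lineage (21 UMIs, 3.75 to 9.25) and 5.01 in neuron-like cells (254 UMIs, 4.41 to 5.66). Myeloid-like and astrocyte-like cells stood apart, at 18.7-fold (15.04 to 23.1) and 8.47-fold (6.69 to 10.7) the neuron-like level. With all clusters included, the OL-lineage and neuron-like levels did not differ beyond counting error. In the WMI library the order was the same, at 291 CPM in myeloid-like (1240 UMIs, 275 to 307), 68.9 in astrocyte-like (221 UMIs, 60.1 to 78.6), 48.5 in OL-lineage (254 UMIs, 42.7 to 54.9) and 25.6 in neuron-like cells (983 UMIs, 24.0 to 27.2). All 3 neighbouring pairs in this order had intervals of their ratio above 1. The lead of myeloid-like over neuron-like cells was 11.4-fold (10.4 to 12.4) in the WMI library. Without clusters that came almost wholly from one library, the myeloid-like class itself unchanged, it was 32.7-fold (25.3 to 42.2) in the Control and 12.5-fold (11.4 to 13.7) in the WMI library. With those neuron-like clusters left out, the OL-lineage level was above the neuron-like one in both libraries. It was 2.11-fold (1.26 to 3.38) in the Control and 2.09-fold (1.81 to 2.40) in the WMI library.

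**Figure D1:**
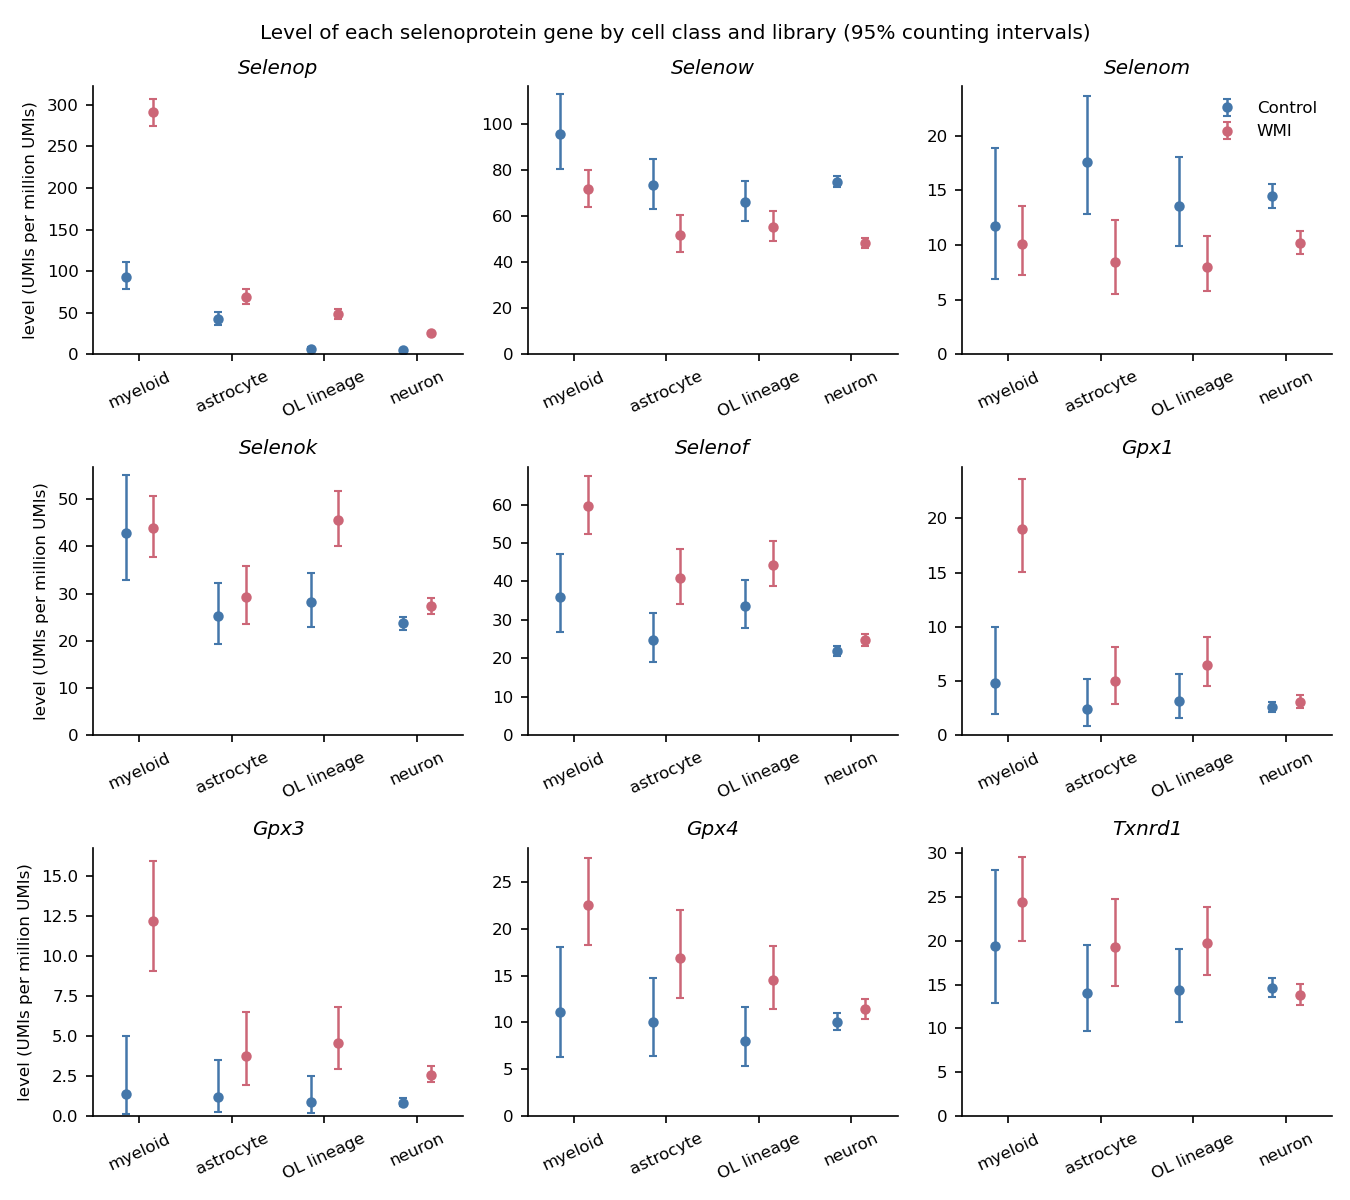
Level of each of the 9 selenoprotein genes (vertical axis, UMIs per 1000000 UMIs, each panel on its own scale from 0) in the 4 cell classes of the Control (blue) and WMI (red) libraries, as points with 95% Poisson intervals. *Selenop* in WMI myeloid-like cells, at 291, lies far above its other values, whereas *Selenow* is lower in the WMI library in all 4 classes.

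No other member separated the classes as far. In the Control library the highest class stood above the lowest by 1.45-fold for *Selenow*, 1.495-fold for *Selenom*, 1.81-fold for *Selenok* and 1.65-fold for *Selenof*, and by 1.37-fold for *Gpx4* and 1.38-fold for *Txnrd1*, against 18.7-fold for *Selenop*. For *Selenom* (log2 -0.26 to 1.48), *Gpx4* (-0.53 to 1.39) and *Txnrd1* (-0.30 to 1.23) the highest and lowest class did not differ beyond counting error. *Gpx1* (2.02-fold) and *Gpx3* (1.63-fold) rested on 7 and 2 myeloid-like UMIs, so that no order of the classes was detectable at this depth. In the WMI library *Gpx1* and *Gpx3* were highest in myeloid-like cells, 6.19-fold (4.61 to 8.28) and 4.69-fold (3.29 to 6.62) above neuron-like cells. The spread there was 2.42-fold for *Selenof*, 1.97-fold for *Gpx4* and 1.76-fold for *Txnrd1*, each with myeloid-like cells highest, and 1.67-fold for *Selenok*, with OL-lineage cells highest. For *Gpx4*, *Txnrd1* and *Selenok* the highest class did not differ from the next beyond counting error, whereas for *Selenof* it did. The spread was 1.49-fold for *Selenow*, with myeloid-like cells highest, and 1.27-fold for *Selenom*, within counting error.

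Next, each member was compared between the libraries in myeloid-like cells. *Selenop* held 135 and 1240 UMIs, a log2 ratio of WMI over Control of 1.64 (1.38 to 1.90), which exceeded that of 96.7% of genes. In cluster 3 alone, the homeostatic microglia-like cells, it stood at 91.6 CPM in the Control and 220 in the WMI library (log2 ratio 1.26, 0.98 to 1.56). In cluster 12 it stood at 391 CPM in the WMI library (728 UMIs) and at 157 in the 14 Control cells (10 UMIs). The WMI library thus had more *Selenop* in the shared microglia-like cluster, and most of its myeloid-like *Selenop* UMIs lay in a cluster that the Control library barely held. The mitochondrial share of myeloid-like UMIs was 0.28% in the Control and 0.91% in the WMI library, and the ribosomal protein gene share 0.378% and 0.549%, and their part in the ratio was not tested.

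Among the peroxidases, *Gpx1* in myeloid-like cells stood at 4.85 CPM in the Control library (7 UMIs, 1.95 to 9.99) and 19.0 in the WMI library (81 UMIs, 15.1 to 23.6). *Gpx3* had 1.39 CPM (2 UMIs, 0.168 to 5.004) and 12.2 CPM (52 UMIs, 9.11 to 16.0). *Gpx4* had 11.1 CPM (16 UMIs, 6.33 to 18.0) and 22.5 CPM (96 UMIs, 18.2 to 27.5). All of them were higher in the WMI library, with log2 ratios of 1.97 (0.86 to 3.33), 3.14 (1.21 to 6.22) and 1.02 (0.25 to 1.89). *Txnrd1* differed by less than its counting error, at 19.4 CPM (28 UMIs) and 24.4 CPM (104 UMIs), a log2 ratio of 0.33 (-0.28 to 0.99). The sparse Control counts leave the sizes of the *Gpx1* and *Gpx3* ratios wide.

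The genes of the endoplasmic reticulum did not move together in myeloid-like cells. *Selenof* stood at 36.0 CPM (52 UMIs) in the Control and 59.6 CPM (254 UMIs) in the WMI library, a log2 ratio of 0.73 (0.29 to 1.19). *Selenok*, at 42.9 CPM (62 UMIs) and 43.9 CPM (187 UMIs), had a log2 ratio of 0.03 (-0.39 to 0.47), and *Selenom*, at 11.8 CPM (17 UMIs) and 10.1 CPM (43 UMIs), of -0.22 (-1.06 to 0.68). The cytoplasmic *Selenow* was the one member lower in the WMI library beyond its counting error, at 95.6 CPM (138 UMIs) and 71.5 CPM (305 UMIs), a log2 ratio of -0.42 (-0.71 to -0.12). *Selenop* and *Selenow*, of nearly equal UMI sums in Control myeloid-like cells (135 and 138), thus parted between the libraries.

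Counted by a rule of size, a ratio of at least 2 or at most 0.5 among genes that reached 50 UMIs in the libraries combined, 4 of 9 members were 2-fold higher (*Selenop*, *Gpx1*, *Gpx3* and *Gpx4*) and 0 were 2-fold lower in myeloid-like cells. Of all 10877 genes measured there, 7.96% were 2-fold higher and 1.76% 2-fold lower. Part of the members were known to be high when they were chosen, and *Gpx4*, at 2.03-fold, lay at the limit. Within cells of up to 0.5% mitochondrial UMIs, or of at least 2000 UMIs, 2 members passed, and the share of all genes was not counted there. The median log2 ratio of the 9 members was 0.73, that of all genes 0.11 and that of ribosomal protein genes 0.61.

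**Figure D2:**
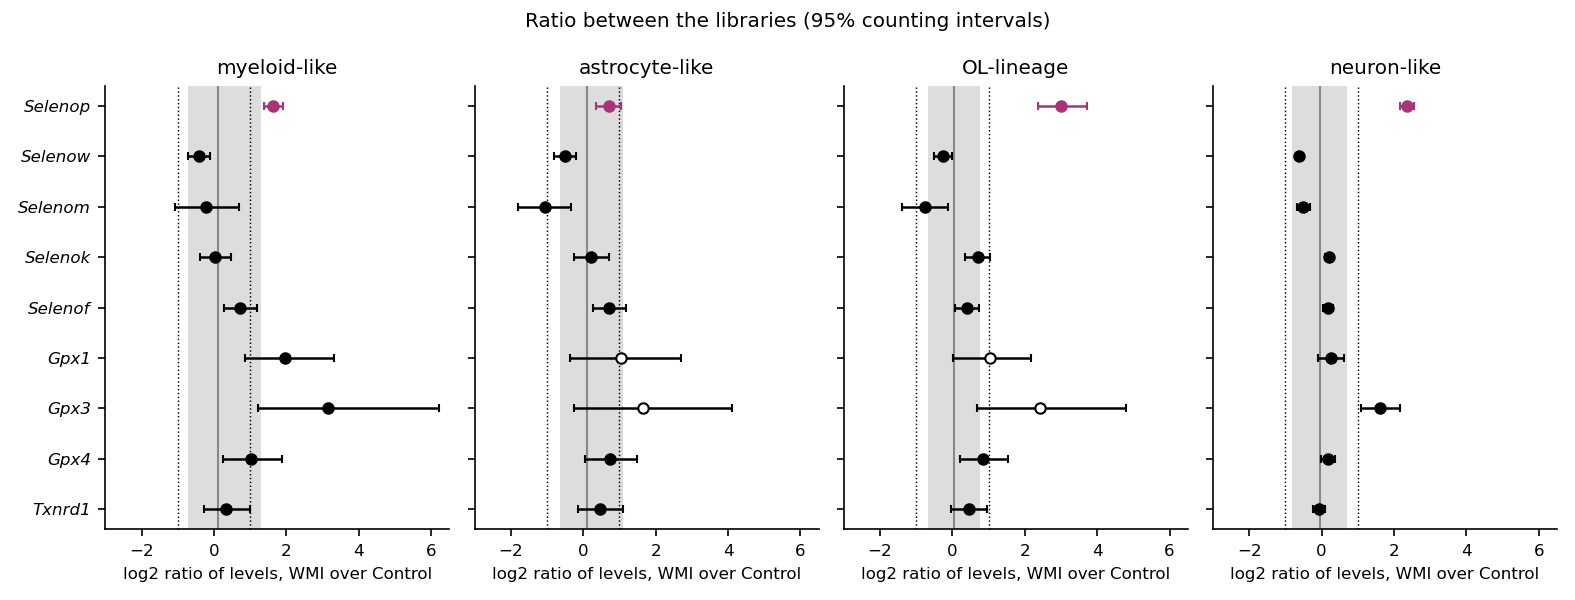
Log2 ratio of the level in the WMI over the Control library (horizontal axis) for each member in the 4 cell classes, with 95% counting intervals. The grey band holds the middle 90% of genes with at least 50 UMIs, the grey line their median, the dotted lines mark 2-fold, and open points have under 50 UMIs; *Selenop* (purple) lies right of the band in myeloid-like, OL-lineage and neuron-like cells, and within it in astrocyte-like cells.

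In astrocyte-like cells the difference in *Selenop* was the smallest of the 4 classes. Its 42.4 CPM in the Control and 68.9 CPM in the WMI library gave a log2 ratio of 0.70 (0.36 to 1.05), and 0.49 (-0.010 to 0.97) among cells without a UMI of *Xist*. *Selenof* stood at 24.8 CPM (62 UMIs) and 40.8 CPM (131 UMIs), a log2 ratio of 0.72 (0.27 to 1.18), and *Gpx4* at 10.0 CPM (25 UMIs) and 16.8 CPM (54 UMIs), 0.75 (0.041 to 1.496). *Selenow*, at 73.2 CPM (183 UMIs) and 51.7 CPM (166 UMIs), and *Selenom*, at 17.6 CPM (44 UMIs) and 8.42 CPM (27 UMIs), were lower in the WMI library, by log2 ratios of -0.50 (-0.81 to -0.19) and -1.07 (-1.81 to -0.34). *Selenok* (25.2 and 29.3 CPM) and *Txnrd1* (14.0 and 19.3 CPM) had intervals that included 0, and *Gpx1* (6 and 16 UMIs) and *Gpx3* (3 and 12 UMIs) were too sparse to measure. Of the 7 measured members 0 were 2-fold higher, beside 5.91% of 10451 genes, and 1, *Selenom*, was 2-fold lower, beside 1.46%.

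In OL-lineage cells *Selenop* had the highest ratio of the 4 classes with all their clusters included, and values of this lineage led to the choice of these genes. It stood at 6.05 CPM in the Control and 48.5 CPM in the WMI library, a log2 ratio of 3.00 (2.36 to 3.72). By stage, it held 10 and 129 UMIs in OPC-like cells (5.65 and 52.3 CPM), 2 and 104 in pre-OL-like cells (2.20 and 45.5 CPM) and 9 and 21 in mature OL-like cells (11.3 and 43.3 CPM). The level was higher in the WMI library at every stage, and within that library the stages lay close together. *Selenok*, at 28.2 CPM (98 UMIs) and 45.7 CPM (239 UMIs), had a log2 ratio of 0.69 (0.35 to 1.05), *Gpx4*, at 8.07 CPM (28 UMIs) and 14.5 CPM (76 UMIs), of 0.85 (0.21 to 1.53), and *Selenof*, at 33.7 CPM (117 UMIs) and 44.3 CPM (232 UMIs), of 0.40 (0.068 to 0.73).

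*Selenom* was lower in WMI OL-lineage cells, at 13.5 CPM (47 UMIs) and 8.02 CPM (42 UMIs), a log2 ratio of -0.75 (-1.39 to -0.12). *Selenow* was lower by less, at 65.98 CPM (229 UMIs) and 55.2 CPM (289 UMIs), a log2 ratio of -0.26 whose interval (-0.51 to -0.00029) ended just short of 0. *Txnrd1* stood at 14.4 and 19.7 CPM with an interval that included 0, *Gpx1* held 11 and 34 UMIs and *Gpx3* 3 and 24. Of the 7 members with at least 50 UMIs, 1 (*Selenop*) was 2-fold higher, beside 2.48% of 11468 genes, and 0 were 2-fold lower, beside 2.03%. The ratio of *Selenop* in immature cells of this lineage led to the choice, so the count of higher members is not read as a result. The mitochondrial share in these cells was 0.19% in the Control and 1.00% in the WMI library. Mature OL-like cells were 91 of 560 Control but 51 of 984 WMI cells. The part of either in these ratios was not tested.

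In neuron-like cells *Selenop* stood at 5.01 CPM in the Control and 25.6 CPM in the WMI library, a log2 ratio of 2.35 (2.15 to 2.56), and at 2.86 and 23.3 CPM (3.02, 2.74 to 3.31) without the clusters dominated by one library. *Gpx3* stood at 0.848 CPM (43 UMIs, 0.614 to 1.14) and 2.60 CPM (100 UMIs, 2.12 to 3.16), a log2 ratio of 1.62 (1.09 to 2.17). Both were 2-fold higher, 2 of 9 members, beside 2.91% of 18445 genes, and 0 members were 2-fold lower, beside 3.08%. *Selenop* was chosen for its high ratio in another class of the same libraries, so the count of higher members is not read as a result. *Gpx3* remained higher without those clusters, at 0.582 and 2.36 CPM (2.02, 1.35 to 2.74).

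Most other members in neuron-like cells changed with the clusters dominated by one library. *Selenow*, the member with the most neuron-like UMIs (3792 and 1851), stood at 74.8 and 48.1 CPM, a log2 ratio of -0.64 (-0.72 to -0.55) that was -0.23 (-0.32 to -0.14) without them. *Selenom*, at 14.5 and 10.2 CPM, went from -0.50 (-0.68 to -0.32) to -0.04 (-0.24 to 0.17). *Selenok* went from 0.21 (0.085 to 0.33) to 0.56 (0.42 to 0.70), *Selenof* from 0.18 (0.049 to 0.30) to 0.44 (0.30 to 0.58), *Gpx1* from 0.26 (-0.11 to 0.63) to 0.95 (0.49 to 1.43) and *Gpx4* from 0.18 (-0.0073 to 0.37) to 0.52 (0.31 to 0.74). Only *Txnrd1* stayed near 0 in both, at -0.08 (-0.24 to 0.082) and -0.04 (-0.22 to 0.13). As a mean over cells of the per-cell level, *Selenok* (-0.02), *Gpx1* (-0.10) and *Gpx4* (-0.13) turned to the other sign. The median of all genes was -0.05 with and 0.0031 without these clusters.

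*Selenop* was then followed across clusters as UMIs per cell, because droplets also catch free RNA, which adds UMIs to cells that do not express a gene. Among the 23 named clusters outside the myeloid-like class with at least 30 cells in each library, it was higher in the WMI library in 23, with 2 at 0 in the Control library. The 17 neuron-like ones among them ranged from 0 to 0.0732 UMIs per cell (median 0.0250) in the Control and from 0.207 to 0.457 (median 0.269) in the WMI library. The 3 OL-lineage ones lay between 0.0132 and 0.0989 in the Control and between 0.242 and 0.412 in the WMI library. The OPC-like and pre-OL-like clusters thus lay within the range of the neuron-like ones in each library. The mature OL-like cluster lay above that range in the Control library (0.0989, 9 UMIs) and within it in the WMI library (0.412, 21 UMIs). These values are not adjusted for depth, which differed between the clusters.

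**Figure D3:**
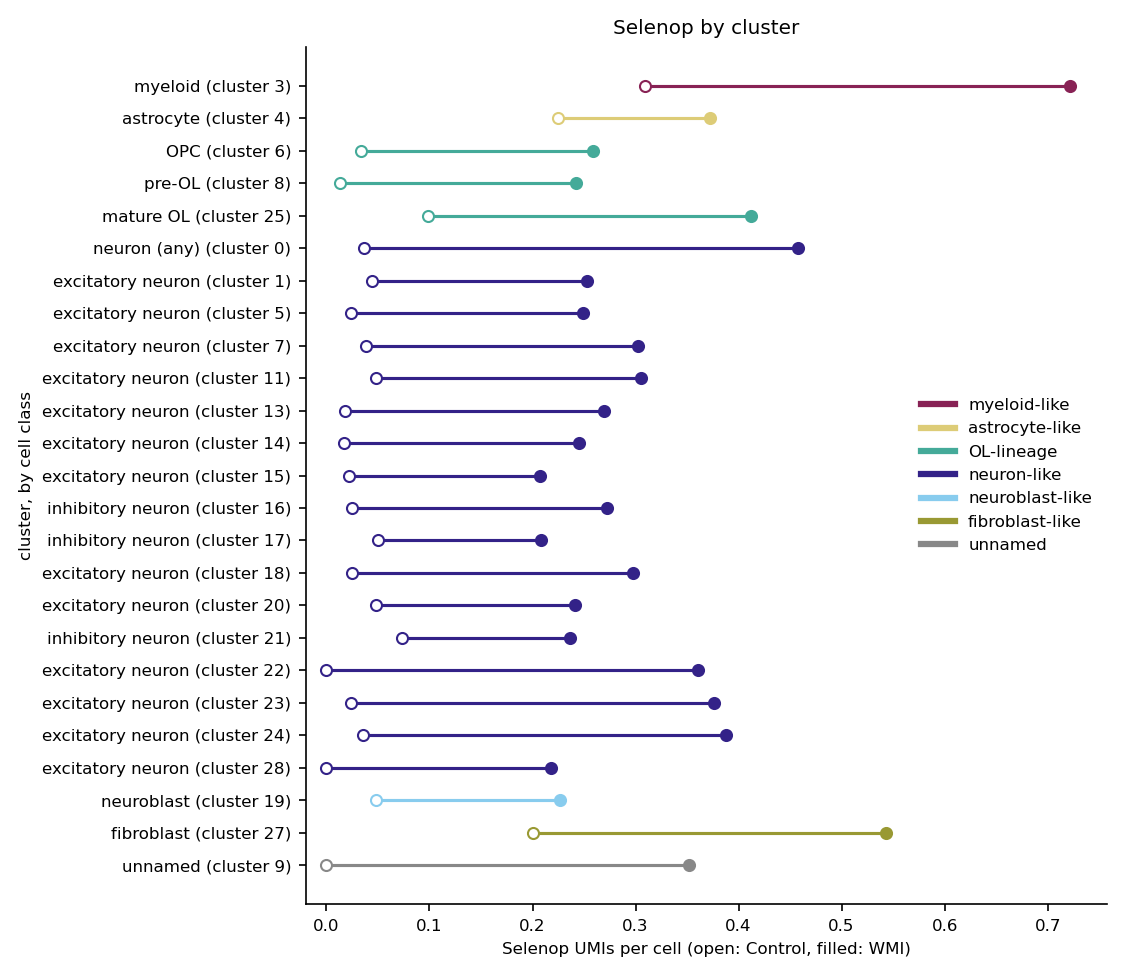
*Selenop* UMIs per cell (horizontal axis) in the Control (open) and WMI (filled) libraries for the clusters with at least 30 cells in each, coloured by cell class, which leaves out myeloid-like cluster 12. Neuron-like clusters sit between 0 and 0.0732 in the Control and between 0.207 and 0.457 in the WMI library, and the OPC and pre-OL clusters among them.

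By class, *Selenop* held 0.0375 UMIs per OL-lineage cell and 0.0358 per neuron-like cell in the Control library, and 0.258 and 0.282 in the WMI library. Per cell, both classes thus lay close together in each library. Per 1000000 UMIs OL-lineage cells were higher in the WMI library, and in both libraries once the neuron-like clusters dominated by one library were left out. Whether OL-lineage cells hold *Selenop* above a level shared by both classes was not tested. Of OL-lineage cells, 3.39% in the Control and 21.6% in the WMI library held a *Selenop* UMI, against 3.48% and 24.3% of neuron-like cells, at median depths of 5686 and 4612 UMIs against 4664 and 9176. After each cell was thinned to 1000 UMIs, the shares were 0.536% (95% Clopper-Pearson interval 0.111 to 1.56) and 5.79% (4.42 to 7.44) against 0.887% (0.682 to 1.13) and 3.79% (3.18 to 4.47). Astrocyte-like cells held 0.225 UMIs per cell in the Control and 0.372 in the WMI library, above the neuron-like values, and myeloid-like cells 0.321 and 1.05.

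In OL-lineage, neuron-like and neuroblast-like cells the summed markers of myeloid cells were, like *Selenop*, higher in the WMI library. The 22 listed myeloid markers summed to 1.604 UMIs per OL-lineage cell in the Control and 4.80 in the WMI library, 1.45 and 5.71 per neuron-like cell and 1.19 and 4.79 per neuroblast-like cell, against 28.4 and 40.3 per myeloid-like cell. Of the 22, 1 was at 0 in Control OL-lineage cells and 0 were at 0 in WMI ones. In astrocyte-like cells the sum was 8.70 and 7.57, with 0 of 22 at 0, of which *Mertk*, a phagocytic receptor that astrocytes also use, made up 7.69 and 3.00. The other 21 markers summed to 1.02 and 4.57 UMIs per astrocyte-like cell, beside 1.24 and 5.36 per neuron-like and 1.23 and 4.45 per OL-lineage cell. *Selenop* amounted to 2.34 (Control) and 5.38 (WMI) per 100 of these marker UMIs in OL-lineage cells, 2.46 and 4.93 in neuron-like cells and 1.13 and 2.60 in myeloid-like cells. Against the whole list *Selenop* was thus higher in OL-lineage and neuron-like cells than in myeloid-like cells, with intervals apart in both libraries. By stage, in the Control library only mature OL-like cells (6.43, 9 UMIs) had an interval apart from the myeloid-like one. Those of OPC-like (1.82, 10 UMIs) and pre-OL-like cells (0.957, 2 UMIs) included the myeloid-like value. In the WMI library every stage and the neuron-like class lay above myeloid-like clusters 3 (1.81) and 12 (3.88), with intervals apart.

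The genes of complement C1q (*C1qa*, *C1qb* and *C1qc*), which brain myeloid cells make, were taken from that list after its values were seen, and the other markers do not all give what they give. In the Control library *Selenop* held 14.6 UMIs per 100 C1q UMIs in myeloid-like (12.1 to 17.5), 17.8 in OL-lineage (10.6 to 28.5) and 14.4 in neuron-like cells (12.5 to 16.4). In the WMI library it held 21.6 (20.3 to 23.0), 21.8 (19.0 to 25.04) and 20.3 (19.0 to 21.8), and 19.7 (13.8 to 27.6) in neuroblast-like cells. For these 3 genes the intervals of the ratio overlapped among the classes of a library, at C1q levels that went from 0.249 to 1.39 UMIs per neuron-like cell. Astrocyte-like cells lay above the myeloid-like, OL-lineage and neuron-like cells, with 110 (83.0 to 147) in the Control and 31.8 (27.2 to 37.1) in the WMI library. Their C1q went from 0.204 to 1.17 UMIs per cell. The neuroblast-like intervals overlapped the astrocyte-like ones in both libraries, with 25 (4.53 to 92.6) in the Control library. Taken against each of the 22 markers in turn, the *Selenop* ratio in WMI neuron-like cells was between 0.625 (*Lyz2*) and 5.20 (*Dock8*) times that in myeloid-like cells (median 1.34), and within 1.5-fold of it for 11. In WMI OL-lineage cells it was between 0.676 (*Lyz2*) and 6.25 (*Inpp5d*) times (median 1.62), and within 1.5-fold for 9. In the Control library it was within 1.5-fold for 11 of 22 markers in neuron-like cells and for 8 of the 21 found in OL-lineage cells. The myeloid markers thus kept no common ratio to *Selenop* across the classes, and the part of free RNA in the *Selenop* levels was not tested.

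**Figure D4:**
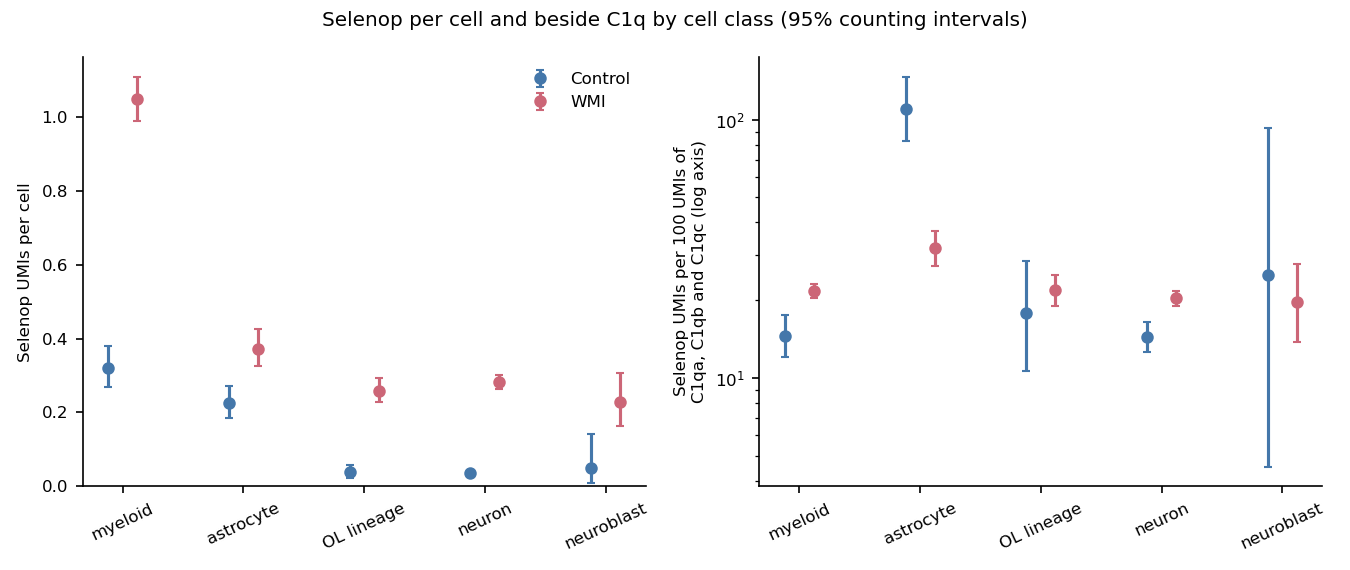
*Selenop* UMIs per cell (left) and per 100 UMIs of *C1qa*, *C1qb* and *C1qc* (right, log axis) in 5 cell classes of the Control (blue) and WMI (red) libraries, with 95% counting intervals. On the right the myeloid, OL-lineage and neuron classes lie near 14.4 to 17.8 in the Control and near 20.3 to 21.8 in the WMI library, with astrocyte-like cells above them. The 3 C1q genes were chosen after the values were seen, and other myeloid markers give other ratios.

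*Gpx3* held 0.00606 UMIs per neuron-like, 0.00536 per OL-lineage, 0.00637 per astrocyte-like and 0.00475 per myeloid-like cell in the Control library. In the WMI library it held 0.0287, 0.0244, 0.0202 and 0.0439. No class stood out in the Control library, and myeloid-like cells were the highest of the 4 in the WMI library. For *Selenow* the values were 0.534 per neuron-like and 0.328 per myeloid-like cell in the Control, and 0.531 and 0.258 in the WMI library, so that per cell neuron-like cells held more. Median depths were 4664 and 9176 UMIs in neuron-like against 3209 and 3190 in myeloid-like cells. Per 1000000 UMIs, *Selenow* was instead highest of the 4 classes in myeloid-like cells in both libraries, like *Selenop*. Its log2 lead over neuron-like cells was 0.35 (0.099 to 0.60) in the Control and 0.57 (0.39 to 0.75) in the WMI library. Among smaller classes of the Control library, *Selenow* stood at 111 CPM in neuroblast-like (37 UMIs, 78.4 to 153) and 129 CPM in endothelial-like cells (10 UMIs, 61.7 to 237). Both intervals included the myeloid-like value. In the WMI library they stood at 61.7 CPM (50 UMIs) and 46.3 CPM (3 UMIs), neither above the myeloid-like value.

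The UMIs of each member were also counted by class. Of the 536 *Selenop* UMIs of the Control library, 47.4% lay in neuron-like cells, which were 81.1% of the cells, 25.2% in myeloid-like cells (4.81% of the cells) and 19.8% in astrocyte-like cells (5.38%). Of the 3126 of the WMI library, 39.7% lay in myeloid-like cells (15.6% of the cells), 31.4% in neuron-like cells (46.0%), 7.07% in astrocyte-like cells (7.85%) and 10.1% in unnamed clusters (13.5%). Of *Selenow* UMIs, neuron-like cells held 85.3% of 4448 in the Control and 60.9% of 3039 in the WMI library. Both lay above their shares of the cells (81.1% and 46.0%), whereas those of *Selenop* lay below. *Gpx1* followed the cells in the Control library, with 82.8% of 157 UMIs in neuron-like cells, and in the WMI library its 368 UMIs lay in neuron-like (32.1%), unnamed (31.0%) and myeloid-like cells (22.0%).

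The unnamed clusters carried high levels of several members. Cluster 9, led by *Ftl1* and mitochondrial genes with 10 of 22 myeloid markers, held 59 Control and 483 WMI cells. In it *Selenop* held 0 UMIs in the Control library, where 3 counts would be 14.0 CPM, and 155 CPM (170 UMIs) in the WMI library, at least 11.1-fold higher. *Gpx1* stood at 4.66 CPM (1 UMI) and 67.3 CPM (74 UMIs), a log2 ratio of 3.85 (1.33 to 9.18), and *Gpx4* held 0 and 57 UMIs, 51.9 CPM in the WMI library. Ribosomal protein genes in this cluster had a median log2 ratio of 2.50 beside 0.10 for all genes, and their part in these ratios was not tested. Cluster 10, led by haemoglobin genes with 13 of 22 myeloid markers, had 2 Control and 536 WMI cells and held 151 CPM of *Selenop* in the WMI library.

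Of smaller classes, fibroblast-like cells (60 Control and 104 WMI cells) had 20.96 CPM of *Selenop* (8 UMIs, 9.05 to 41.3) in the Control and 102 CPM (57 UMIs, 77.4 to 132) in the WMI library. Endothelial-like cells (20 and 15 cells) had 116 CPM (9 UMIs, 53.0 to 220) and 185 CPM (12 UMIs, 95.7 to 324), which did not differ beyond counting error. In the Control library the endothelial-like value lay above the myeloid-like one, which fell within its interval. Neuroblast-like cells (62 and 185) had 9.03 CPM (3 UMIs) and 51.9 CPM (42 UMIs), a log2 ratio of 2.52 (0.88 to 4.86).

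The profile of *Selenop* over the classes and libraries (log2 of CPM + 1) was compared with those of all genes with at least 500 UMIs. The Pearson correlation over 12 profile points, which share their libraries and free RNA, was highest for *Itm2b* (0.95), *Apobec1* (0.94), *Tgoln1* (0.94), *Trim8* (0.94) and *Ctsc* (0.93). *Apobec1* and *Ctsc* had the pattern of *Selenop*, at 49.2 and 447 CPM and at 40.2 and 111 CPM in Control and WMI myeloid-like cells, against at most 8.56 CPM in neuron-like cells. The others had it less, as *Itm2b* stood at 83.4 and 121 CPM in neuron-like cells. *Tgoln1* (22.9 and 26.7 CPM) and *Trim8* (27.0 and 34.2 CPM) differed little between the libraries in myeloid-like cells. Among the members the correlation with *Selenop* was 0.65 for *Selenof*, 0.65 for *Gpx4*, 0.64 for *Selenok*, 0.63 for *Gpx1*, 0.13 for *Txnrd1*, -0.16 for *Selenow* and -0.26 for *Selenom*. The genes closest to *Selenow* were *Psmc2* (0.93), *Pcp4* (0.91), *Mdh1* (0.91), *Hnrnpu* (0.90) and *AI593442* (0.89).

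The other 15 selenoprotein genes were mostly within 2-fold. Of those with at least 50 UMIs, 1 of 7 was 2-fold higher in myeloid-like cells, 1 of 7 in astrocyte-like, 0 of 6 in OL-lineage and 0 of 12 in neuron-like cells, where 1 was 2-fold lower (all genes: 7.96%, 5.91%, 2.48% and 2.91% higher, and 3.08% lower in neuron-like cells). Their median log2 ratios were 0.23, 0.34, 0.21 and -0.22, beside 0.73, 0.46, 0.45 and 0.18 for the 9 members. Part of the members were known to be high when they were chosen, so their higher medians are not read as a result. *Msrb1*, a methionine sulfoxide reductase, was the myeloid-like one, at 3.46 CPM (5 UMIs) in the Control and 15.7 CPM (67 UMIs) in the WMI library. Its log2 ratio was 2.18 (0.89 to 3.85). *Selenon*, of the endoplasmic reticulum, was the astrocyte-like one (18 and 47 UMIs, 1.02, 0.21 to 1.90). *Dio2*, which activates thyroid hormone and had the most UMIs of the 15 in astrocyte-like cells, stood there at 146 CPM (366 UMIs) in the Control and 77.3 CPM (248 UMIs) in the WMI library, a log2 ratio of -0.92 (-1.16 to -0.69). *Dio2* was also the gene 2-fold lower in neuron-like cells, at 4.69 and 1.04 CPM (238 and 40 UMIs, -2.17, -2.70 to -1.69). That ratio includes the clusters dominated by one library. Per neuron-like cell *Dio2* held 0.0335 and 0.0115 UMIs, against 0.777 and 0.418 per astrocyte-like cell, and the part of free RNA was not tested. *Selenot* had the most UMIs in myeloid-like cells (66 and 229) and *Selenoi* in OL-lineage (168 and 292) and neuron-like cells (1893 and 1396), all within 2-fold.

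Among 10 genes of selenocysteine synthesis and insertion, all measured in the 4 classes, 1 was 2-fold higher in myeloid-like cells, 1 in OL-lineage cells and 0 in astrocyte-like and neuron-like cells, with 0 lower, beside the same shares of all genes. The first was *Scly*, the lyase that frees selenium from selenocysteine, at 13.2 CPM (19 UMIs) in the Control and 30.02 CPM (128 UMIs) in the WMI library, a log2 ratio of 1.19 (0.49 to 1.97). The second was *Rpl30*, a ribosomal protein gene, at 13.5 and 30.8 CPM (47 and 161 UMIs), and the ribosomal protein genes had a median log2 ratio of 0.58 in the same cells. *Secisbp2l*, a relative of the SECIS-binding protein, was within 2-fold but lower in OL-lineage cells, at 138 CPM (479 UMIs) and 80.1 CPM (419 UMIs), -0.79 (-0.98 to -0.59). Mature OL-like cells were 91 of 560 Control but 51 of 984 WMI cells of this class, and the part of this mix in the ratio was not tested.

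Of the uptake receptors *Lrp8*, *Lrp2* and *Lrp1*, 0 passed 2-fold in the classes where they were measured. Of all genes, 7.96%, 5.91%, 2.48% and 2.91% were 2-fold higher in myeloid-like, astrocyte-like, OL-lineage and neuron-like cells. The shares 2-fold lower were 1.76%, 1.46%, 2.03% and 3.08%. *Lrp8*, the receptor for *Selenop* protein in the brain, stood at 72.4 CPM (3673 UMIs) in the Control and 70.5 CPM (2713 UMIs) in the WMI library in neuron-like cells, a log2 ratio of -0.04 (-0.11 to 0.034). In astrocyte-like cells it stood at 92.0 CPM (230 UMIs) and 62.3 CPM (200 UMIs), -0.56 (-0.84 to -0.28). *Lrp1* was higher in WMI myeloid-like cells, at 254 CPM (367 UMIs, 229 to 282) in the Control and 361 CPM (1540 UMIs, 343 to 380) in the WMI library. In astrocyte-like cells *Lrp1* was lower, at 173 CPM (433 UMIs) and 147 CPM (473 UMIs).

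Of 12 genes of the glutathione and thioredoxin systems, 1 of 9 measured was 2-fold higher in myeloid-like cells, 2 of 10 in astrocyte-like, 2 of 9 in OL-lineage and 1 of 10 in neuron-like cells, and 1 was 2-fold lower, in OL-lineage cells. Of all genes, 7.96%, 5.91%, 2.48% and 2.91% were 2-fold higher in these classes, and 2.03% were 2-fold lower in OL-lineage cells. *Nfe2l2*, the transcription factor of the antioxidant response, was 2-fold higher in myeloid-like cells, at 70.0 CPM (101 UMIs) and 143 CPM (608 UMIs), a log2 ratio of 1.03 (0.72 to 1.35). It also passed 2-fold in OL-lineage (3.46 and 8.41 CPM, 12 and 44 UMIs) and neuron-like cells (1.46 and 3.04 CPM, 74 and 117 UMIs). Per cell these were 0.0214 and 0.0447 UMIs in OL-lineage and 0.0104 and 0.0336 in neuron-like cells. Myeloid-like cells held 0.240 and 0.514, and the part of free RNA in the other classes was not tested. *Slc7a11*, which imports cystine for glutathione, stood at 196.5 CPM (491 UMIs) in the Control and 444 CPM (1424 UMIs) in the WMI library in astrocyte-like cells, 1.18 (1.03 to 1.33), and at 6.91 and 15.5 CPM in OL-lineage cells. *Txnip*, an inhibitor of thioredoxin, held 8 and 50 astrocyte-like UMIs, 2.28 (1.195 to 3.57). *Gss*, the glutathione synthetase, was lower in OL-lineage cells, at 31.7 CPM (110 UMIs) and 14.5 CPM (76 UMIs), -1.13 (-1.57 to -0.69). The part of the smaller share of mature OL-like cells in the WMI library was not tested.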

How the data were processed

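Single-cell RNA-seq was measured in 1 Control and 1 WMI library of mouse cerebral cortex. The authors deposited raw UMI counts per gene and barcode, made with Cell Ranger 6.1.1 per the file headers and not normalized. The submitters' notes also name Seurat and mm9, whereas all 55450 gene identifiers matched GENCODE M21 on GRCm38, whose coordinates are given. The paper states fewer cells per group than the barcodes held here, with no filter.

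Kept barcodes had at least 1000 UMIs, at least 500 genes and up to 10% mitochondrial UMIs, which 748 Control and 241 WMI barcodes failed, and 785 and 542 predicted doublets were removed. The doublet caller found 348 (Control) and 290 (WMI) of 500 artificial doublets. Libraries were integrated with IntegrateData of Seurat 5.3.0 in R 4.3.3 (2000 features, 30 dimensions, resolution 0.8), without the reported genes and the cell-cycle genes. Clusters were named from 19 marker lists, with thresholds set after a look at the clusters. 2 clusters stayed unnamed because mitochondrial or haemoglobin genes led them.

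UMIs were summed per class and library in Python 3.11.15 (scipy 1.17.1). Levels have exact Poisson intervals, ratios conditional binomial intervals and shares Clopper-Pearson intervals, all 95% and for counting error only. The ratio intervals were tried on simulated Poisson counts. These follow the model of the intervals and hold no spread between cells, so they cannot show how the intervals fit UMIs summed over unlike cells. A count of 0 was given a limit of 3 counts. The genes named were the 9 members, the other selenoprotein genes with the most UMIs or past 2-fold in a class, list genes past 2-fold, and the 5 closest profiles. *Lrp8*, *Lrp1* and *Secisbp2l* were named after their values were seen. The members and lists were chosen with earlier results of these data known. Alternatives were the denominator, per-cell means, the mitochondrial and depth limits, the resolution, doublets, the fold and UMI minimum, and cluster weights. The C1q genes, the ratios to single markers and the marker sum without *Mertk* were also chosen after the data were seen. 2 more alternatives, the unnamed clusters and *Xist*, were added after the data were seen.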

Additional observations from a re-analysis of the deposited data

How the results depend on the processing

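Of 217 log2 ratios of the members over 28 comparisons and the alternatives, 4 changed sign, *Selenok* in myeloid-like cells with up to 0.5% mitochondrial UMIs (-0.15) and *Selenok* (-0.02), *Gpx1* (-0.10) and *Gpx4* (-0.13) in neuron-like cells as a mean over cells. Of the values that answer a comparison, 75 stayed close to the main one and 23 moved, and the 4 *Selenop* ratios between the libraries stayed above 0 under every alternative. The *Selenop* log2 ratio in myeloid-like cells (1.64) was 1.23 with only clusters of at least 10% of cells from each library, which leaves out cluster 12, and 1.26 with equal weight to each cluster of at least 30 cells in each library, which leaves 1 cluster here and so repeats the value of cluster 3. In neuron-like cells (2.35) it was 1.95 as a mean over cells, 3.02 with the clusters of both libraries only, 2.96 with equal weight and 2.59 with doublets kept. The log2 lead of myeloid-like over neuron-like cells was 3.35 (mean over cells) and 4.98 (clusters of both libraries) in the Control library, against 4.22, and 2.98 and 3.20 in the WMI library, against 3.51. The number of members past 2-fold in myeloid-like cells (4) was 2 with up to 0.5% mitochondrial UMIs, 2 with at least 2000 UMIs, 2 with clusters of both libraries and 1 with at least 200 UMIs per gene. In astrocyte-like cells (1) it was 0 as a mean over cells, 0 with at least 200 UMIs, 0 with doublets kept and 4 at a fold of 1.5. In OL-lineage cells (1) it was 2 as a mean over cells, 2 with up to 0.5% mitochondrial UMIs, 2 with doublets kept and 4 at a fold of 1.5, and in neuron-like cells (2) it was 1 with at least 200 UMIs. The share of all genes was not counted under these alternatives, so these numbers show only how the counts depend on the settings. The cause of the other shifts was not tested. No paired analysis was possible because each group has 1 library. Depth limits *Gpx1* and *Gpx3* most, which had under 50 UMIs in astrocyte-like and OL-lineage cells.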
